A study of Mus musculus with 96 samples.

Results

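The anaphase-promoting complex (APC/C) and the SCF complex with Skp2 are the ubiquitin ligases that remove cyclins, Cdk inhibitors and other cell cycle proteins at set times. The 10 transcripts described here are those of 2 APC/C activators (Cdc20, Fzr1), an APC/C inhibitor (Fbxo5), the 2 E2 enzymes that work with the complex (Ube2c, Ube2s), 4 of its subunits (Anapc1, Anapc2, Anapc4, Cdc27) and the F-box protein Skp2. They were chosen by gene symbol, and all 10 had a row among the 15895 genes of the deposited table. The samples are primary mouse embryonic fibroblasts (MEFs) of the CF1 stock at E13, which carry no transgene or deletion, kept for 36 h in 0.5% fetal calf serum (FCS) and then given serum to 20%. Polyadenylated RNA was sequenced once per time in 2 time courses, Cycle 1 (63 libraries used, from -1 h to 38 h) and Cycle 2 (32 libraries, to 27 h). In each Cycle the libraries at -1 h and 0 h are the starved cells, and all libraries after 0 h have had serum. The labels do not say whether the Cycles came from separate embryos, so the spread between these 2 time courses may be technical. The p-values of the main tests rest on that spread, taken hour by hour. Successive hours of a course are taken as independent samples, which they are not, so all p-values here are likely too small.

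In cycling cells the APC/C is switched on by Cdc20 in mitosis and by the product of Fzr1, Cdh1, from late mitosis into G1. Emi1, the product of Fbxo5, blocks the complex from the start of S phase, UBE2C starts ubiquitin chains on its substrates and UBE2S lengthens them. Skp2 takes the Cdk inhibitor p27 to the SCF complex, and Skp2 is itself a substrate of the APC/C bound to Cdh1. RNA levels say nothing of the activity of these proteins, much of which is set by phosphorylation, binding and degradation. In a bulk RNA sample, more cells that express a gene and more RNA per cell cannot be told apart.

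The depth recovered per library ranged from 5076388 to 14479174 reads, with a median of 10845639, and a value below is the number of reads on a gene after scaling the library to 10000000 reads. Ranges over windows of hours include the hours that were sampled in Cycle 1 alone, while the tests use the shared hours. The 6 fibroblast markers examined (Col1a1, Col1a2, Col3a1, Pdgfrb, Vim and Thy1) were at 1854.7 or more in every library. Of 14 symbols of markers of other cell types 11 were measured. Epcam and Pecam1 were at 0 in 3 libraries, Cdh5 in 1 and Myod1 in 11, while Lyz2 (median 743.88) and Des (median 815.07) were well above 0. In Cycle 1 the library at 24.5 h stood apart. Its genes differed from the mean of the 24 h and 25 h libraries by 0.412 on the log2 scale in the median, against at most 0.226 for any other library compared with its neighbours. It is left out of the window ranges below, and since Cycle 2 has no such hour it entered no test.

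The promoters of Cdc20, Ube2c and Fbxo5 are shown because known factors bind elements with the letters marked in them. These are the MuvB, B-Myb and DREAM complexes and the factor NF-Y, which control the transcription of genes of G2 and mitosis. That of Fzr1 is shown because it lacks the first of the elements marked below. Sequences are from RefSeq on GRCm38.p6, 250 bases before to 50 bases after the start, read 5′ to 3′ on the strand of the gene. Capitals mark the cell cycle homology element (TTTGAA or TTCGAA) and the CCAAT box, each on either strand. For Fbxo5 the mm9 annotation gives the plus strand of chromosome 10 and GRCm38.p6 the minus strand, and its window follows GRCm38.p6.
Cdc20, chr4:118437294-118437593, minus strand: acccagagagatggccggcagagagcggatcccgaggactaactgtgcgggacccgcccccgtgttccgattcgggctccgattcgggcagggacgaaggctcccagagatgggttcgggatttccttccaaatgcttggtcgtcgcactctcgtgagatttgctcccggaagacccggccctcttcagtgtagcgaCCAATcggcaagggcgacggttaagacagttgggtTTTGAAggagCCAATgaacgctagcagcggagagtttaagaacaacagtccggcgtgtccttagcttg
Ube2c, chr2:164769679-164769978, plus strand: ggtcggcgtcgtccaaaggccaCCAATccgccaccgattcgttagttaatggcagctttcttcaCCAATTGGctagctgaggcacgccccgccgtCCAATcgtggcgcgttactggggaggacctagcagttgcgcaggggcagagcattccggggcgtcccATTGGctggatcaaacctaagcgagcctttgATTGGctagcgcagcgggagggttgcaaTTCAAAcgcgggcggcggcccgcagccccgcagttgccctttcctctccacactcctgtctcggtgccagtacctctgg
Fbxo5, chr10:5805416-5805715, minus strand: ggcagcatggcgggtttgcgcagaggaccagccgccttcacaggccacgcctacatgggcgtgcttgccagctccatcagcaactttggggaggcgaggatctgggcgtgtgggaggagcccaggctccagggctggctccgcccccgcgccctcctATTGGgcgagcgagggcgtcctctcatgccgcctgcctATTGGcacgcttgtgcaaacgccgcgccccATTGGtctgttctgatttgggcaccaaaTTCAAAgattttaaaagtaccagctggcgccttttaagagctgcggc
Fzr1, chr10:81378321-81378620, minus strand: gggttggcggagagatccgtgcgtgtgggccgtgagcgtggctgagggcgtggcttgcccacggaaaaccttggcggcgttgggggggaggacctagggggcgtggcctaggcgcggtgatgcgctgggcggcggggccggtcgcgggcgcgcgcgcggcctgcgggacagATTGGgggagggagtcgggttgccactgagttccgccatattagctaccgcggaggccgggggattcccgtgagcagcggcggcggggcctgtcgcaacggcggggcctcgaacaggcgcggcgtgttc

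The homology element was present in the windows of Cdc20, Fbxo5, Ube2c and Ube2s and in 1 of the 2 promoters listed for Skp2 (chr15:9155376-9155675), which makes 5 of the 10 genes. Of all 32851 promoters of this length 19.2% held it. Cdc20 had it 18 bases before the start with CCAAT boxes beginning 53 and 8 bases before it. Ube2c had 6 CCAAT boxes, 2 of them overlapping on opposite strands, and Fbxo5 had 3. The CCAAT box occurred in 37.4% of all promoters. It was also in those of Fzr1 and Cdc27 and in the same 1 of the 2 promoters listed for Skp2. No promoter of the 10 genes held the E2F-type letters TTTNNCGC, which 5.2% of all promoters held. Anapc1, Anapc2 and Anapc4 had none of the 3 motifs in this window. A match of letters is a description and not evidence of binding.

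The plot of values by hour shows how the 10 transcripts moved. Cdc20, Ube2c, Fbxo5 and Ube2s ended well above the starved level in Cycle 1 and less far above it in Cycle 2. Skp2 fell within 1.5 h of serum and was above its starved level from 3 h in Cycle 1. Fzr1 was low at 1 to 3 h and above its starved level at 19 to 23 h in Cycle 1. The 4 subunits of the complex dipped at 1 to 3 h and returned towards the starved level.

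**Figure D1:**
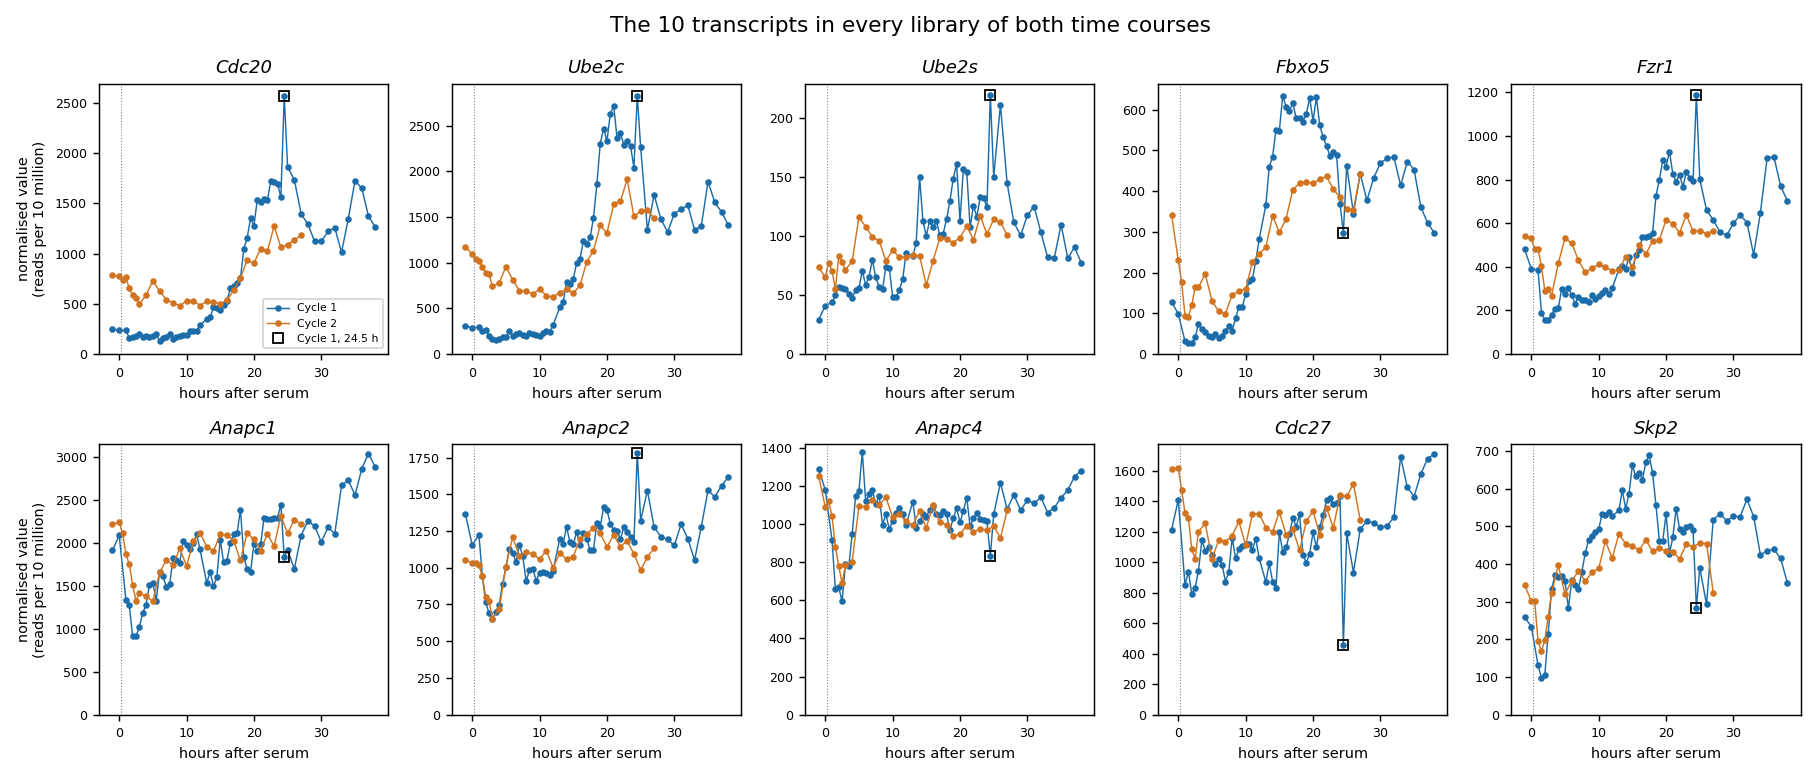
Normalised value (reads after scaling to 10000000, linear axes from 0) of the 10 transcripts against hours after serum, 1 point per library, Cycle 1 in blue and Cycle 2 in orange, the dotted line just after 0 h separating starved from serum-treated cells. Cdc20 and Ube2c start at 240 and 296 in Cycle 1 and at 777 and 1135 in Cycle 2 (starved means), and the open square marks the Cycle 1 library at 24.5 h, which stands apart from its neighbours for most of the 10.

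To ask which of them changed at any time, the 29 hours after serum that both Cycles sampled were set against the starved libraries in 1 limma model with a term for the Cycle (62 libraries, 30 residual degrees of freedom). The F test gave an adjusted p under 0.05 with a difference above 2-fold at some hour for 6 of the 10, Fzr1, Cdc20, Fbxo5, Ube2c, Ube2s and Skp2, beside 52.4% of all genes. The 4 subunits passed the F test but not the 2-fold size. Their largest hourly differences were falls at 2.5 h to 3 h, to 0.520 times the starved level for Anapc1, 0.568 for Anapc2, 0.534 for Anapc4 and 0.636 for Cdc27. Without the Cycle 2 library at 2 h or at 2.5 h Anapc1 also passed the size (1.15 in log2 size in both cases), without the one at 2.5 h Anapc4 did (1.03), and without the Cycle 1 library at 1.5 h Skp2 no longer did (0.98). Fzr1 fell short of the size with TMM rescaling (0.92), median-of-ratios rescaling (0.88) and edgeR (0.88).

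Windows of hours were then compared with the starved cells, and all these comparisons share the same 4 starved libraries. The scaling to a fixed total left the median of all genes below the starved cells, by 0.26 on the log2 scale at 1 to 3 h and by 0.12 to 0.21 at later windows, and TMM rescaling brought this to between -0.05 and -0.09. A small fall of a subunit is to be read against this shift.

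At 1 to 3 h after serum 7 of the 10 were lower than in starved cells and none was higher, beside 38.9% of all genes lower and 14.1% higher. Fbxo5 fell most. In Cycle 1 it was at 127.75 and 98.472 in the starved libraries and at 26.58 at 2 h, its lowest value, and in Cycle 2 it went from 342.45 and 229.91 to 91.576 at 1.5 h. All libraries from 1 h to 3 h lay below both starved ones in each Cycle, and the difference was -1.38 ± 0.39 (log2, standard error, adjusted p = 0.00312 from limma). The Cycle 1 low at 2 h rests on 28 reads, an exact Poisson 95% interval of 17.6 to 38.4 on the value, which covers counting error only. Fzr1 fell to 154.73 at 2 h in Cycle 1 from 479.46 and 391.15, and to 266.65 at 3 h in Cycle 2 from 541.82 and 529.87 (-0.89 ± 0.22, adjusted p = 0.000983 from limma).

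Skp2 also fell early, to 97.934 at 1.5 h in Cycle 1 (starved 259.27 and 233.87) and to 168.17 at the same hour in Cycle 2 (starved 344.84 and 301.19). By 3 h it was back at 332.6 and 322.67. Over the window the difference was -0.59 ± 0.17 (adjusted p = 0.00392 from limma), which did not pass with TMM rescaling (-0.37, adjusted p = 0.0589) or median-of-ratios rescaling (-0.34, adjusted p = 0.0839). The subunits were lower by 0.46 (Anapc2) to 0.70 (Anapc1), all larger falls than the median gene. Anapc1 is the largest scaffold subunit, Anapc2 the cullin-like catalytic subunit, Anapc4 a platform subunit and Cdc27 one of the repeat proteins that bind the activators. Cdc20, Ube2c and Ube2s did not pass (-0.36 ± 0.42, -0.36 ± 0.47 and 0.31 ± 0.25).

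At 4 to 10 h Skp2 and Ube2s were higher and 6 others lower, beside 23.0% of all genes higher and 40.8% lower. Skp2 had values of 282.55 to 533.14 in Cycle 1 (median 374.27) and 319.89 to 397.01 in Cycle 2 (median 377.92), for a difference of 0.44 ± 0.16 (adjusted p = 0.0198 from limma). In Cycle 1 all 14 libraries lay above both starved ones, and in Cycle 2 the ranges overlapped. Fbxo5 was still low at 39.489 to 179.57 in Cycle 1 and 99.057 to 196.63 in Cycle 2 (-0.90 ± 0.37, adjusted p = 0.0353 from limma), as was Fzr1 (-0.53 ± 0.21, adjusted p = 0.0284).

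Several calls at 4 to 10 h rested on single libraries. Leaving out single libraries of the fit, Anapc1 and Cdc27 kept theirs throughout. Skp2 and Ube2s lost theirs without either starved library of Cycle 1 (adjusted p from 0.15 to 0.374). Fzr1 did so without any 1 of the 4 starved libraries (0.0501 to 0.104). Fbxo5 did so without either starved library of Cycle 2 or the Cycle 1 libraries at 4, 5, 6 or 8 h (0.0558 to 0.208). Anapc2 did so without either starved library of Cycle 1 or those at 6, 8, 9 or 10 h (0.058 to 0.327), and Anapc4 without either starved library of Cycle 1 or the Cycle 2 libraries at -1 h or 4 h (0.0503 to 0.127). With TMM rescaling Fzr1, Fbxo5, Anapc2 and Anapc4 were not called, and their differences were -0.39, -0.76, -0.06 and -0.03.

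From 4 to 10 h to 11 to 14 h, Fbxo5 and Skp2 rose, beside 24.1% of all genes higher and 14.1% lower. Fbxo5 went from a median of 56.537 to 366.35 in Cycle 1 and from 144.99 to 254.04 in Cycle 2, with no overlap between the windows in either Cycle. The step was 3.00-fold (log2 1.58 ± 0.29, adjusted p = 6.06e-05 from limma), 4.69-fold in Cycle 1 and 1.92-fold in Cycle 2. Skp2 rose 1.29-fold (log2 0.37 ± 0.13, adjusted p = 0.0213 from limma), a call lost without any 1 of the Cycle 1 libraries at 11, 12, 13 or 14 h (adjusted p from 0.0505 to 0.0637) or with median-of-ratios rescaling (0.0653). Its larger step came before, from 1 to 3 h to 4 to 10 h, where it rose 2.03-fold (log2 1.02 ± 0.12, adjusted p = 5.57e-09 from limma). Anapc1, Anapc2, Anapc4 and Fzr1 were higher in that earlier step too, with 35.9% of all genes higher and 27.9% lower. The call of Fzr1 in it (0.36 ± 0.15, adjusted p = 0.043) was lost without any 1 of 13 of the libraries from 1 h to 10 h (adjusted p from 0.0526 to 0.146) and with TMM rescaling (0.106). Fbxo5 gained a call there without the Cycle 2 library at 2 h or 2.5 h (adjusted p = 0.036 and 0.0429), and Cdc27 without that at 1 h (0.0474).

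At 11 to 14 h against starved cells Skp2 and Ube2s were higher and Anapc4 and Cdc27 lower, beside 24.8% higher and 34.9% lower. Skp2 was at 527.01 to 595.81 in Cycle 1 and 415.38 to 479.86 in Cycle 2, above both starved libraries in each (0.80 ± 0.18, adjusted p = 0.000217 from limma). The values of Fbxo5 were 183.47 to 551.27 in Cycle 1, above its starved libraries, and 226.2 to 338.86 in Cycle 2, overlapping with its starved ones (0.69 ± 0.40, adjusted p = 0.14). Without the starved library of Cycle 1 at -1 h or at 0 h the calls of Ube2s (adjusted p = 0.163 and 0.0715) and Anapc4 (0.0507 and 0.0761) were lost, and that of Anapc4 also with TMM rescaling (-0.13, adjusted p = 0.0806).

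At 15 to 18 h Fbxo5, Skp2 and Ube2s were higher, and Anapc4 and Cdc27 lower, beside 25.1% higher and 35.0% lower. Fbxo5 had its plateau here in Cycle 1, at 548.77 to 633.89 (median 588.67), and was at 298.88 to 419.2 in Cycle 2, for a difference of 1.37 ± 0.40 (adjusted p = 0.00406 from limma). Skp2 reached its highest level in Cycle 1, 688.12 at 17.5 h, and was at 433.21 to 464.47 in Cycle 2 (0.94 ± 0.18, adjusted p = 3.12e-05 from limma). Cdc20 and Ube2c were above the starved level in all 8 libraries of Cycle 1 (437.25 to 1045.5 and 819.94 to 1859.7) and in Cycle 2 all 4 libraries of Cdc20 and 3 of the 4 of Ube2c lay below both starved ones. Neither passed over both Cycles (0.46 ± 0.43 and 0.76 ± 0.49). Ube2s lost its call without the Cycle 1 library at -1 h (adjusted p = 0.0779) and Anapc4 without that at 0 h (0.0695). Cdc27 lost its call without the 0 h library of Cycle 1 or the libraries of Cycle 2 at -1, 0, 16, 17 or 18 h (0.0534 to 0.137), and with TMM rescaling (0.0741).

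At 19 to 23 h 6 of the 10 were higher and Anapc4 was lower, beside 26.5% of all genes higher and 37.8% lower. Ube2c was the highest in fold over both Cycles and in Cycle 1, while in Cycle 2 Fbxo5 (1.50-fold) and Ube2s (1.48-fold) were above it. In Cycle 1 it had 308.11 and 283.56 in starved cells and 2278.6 to 2717.6 at 19 to 23.5 h (median 2348.3, 10 libraries), an 8.15-fold difference over the shared hours. In Cycle 2 it had 1175.2 and 1094.3 in starved cells and 1326.6 to 1913.9 at 19 to 23 h (median 1639.2, 5 libraries), a 1.39-fold difference. The groups did not overlap in either Cycle, and the difference over the shared hours was 1.75 ± 0.47 (adjusted p = 0.00175 from limma).

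Cdc20 followed the same course. In Cycle 1 it had 246.49 and 233.41 in starved cells and 1157.6 to 1721.5 at 19 to 23.5 h (median 1533.3), and in Cycle 2 783.16 and 771.31 against 902.69 to 1273.4 (median 1023.4). No library of the window lay as low as a starved one of its Cycle, and the differences were 5.92-fold in Cycle 1 and 1.32-fold in Cycle 2 (1.49 ± 0.42 over both, adjusted p = 0.00248 from limma). Reads on Cdc20 could include some from Elovl1, on the opposite strand with 53 exon bases shared and a mean value of 1399.5, and those on Ube2c some from Tnnc2, with 592 shared bases but a mean value of only 11.825. The kit keeps the strand, and whether the counting used it is not given in the sources used here.

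Ube2s was the lowest of the 10 in value in starved cells and at 19 to 23 h. It had 28.557 and 41.03 in the starved libraries of Cycle 1, which rest on 19 and 45 reads (exact Poisson 95% intervals of 17.2 to 44.6 and 30.0 to 55.0), and 107.43 to 161.05 at 19 to 23.5 h. The 19 reads, of the -1 h library, are an estimate, because the step worth 1 read was taken there from other low values than the smallest. In Cycle 2 it went from 73.451 and 65.1 to 94.378 to 117.12. The groups did not overlap in either Cycle (1.25 ± 0.25, adjusted p = 5.34e-05 from limma). Fbxo5 was at 486.64 to 630.72 in Cycle 1 and 405.26 to 436.19 in Cycle 2, above all 4 starved libraries (1.43 ± 0.39, adjusted p = 0.00188 from limma).

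Skp2 had already come down from its highest level in Cycle 1, to 426.6 to 547.26, and stayed at 414.29 to 452.2 in Cycle 2, above the starved cells in both (0.71 ± 0.17, adjusted p = 0.00051 from limma). Fzr1 was at 765.7 to 928.8 in Cycle 1, above its starved libraries. In Cycle 2 it was at 522.85 to 637.64, overlapping with them. Its difference of 0.53 ± 0.22 (adjusted p = 0.0351 from limma) did not pass without the Cycle (adjusted p = 0.0518) or without any 1 of the starved libraries of Cycle 1, the Cycle 1 libraries at 19, 20, 21, 22 or 23 h or the -1 h library of Cycle 2 (adjusted p from 0.07 to 0.129). Among the subunits Anapc4 fell by 0.26 ± 0.07 (adjusted p = 0.00183 from limma). Anapc1 (-0.06 ± 0.11), Anapc2 (0.10 ± 0.08) and Cdc27 (-0.21 ± 0.10) did not pass. Cdc27 was called lower without the Cycle 1 library at 21, 22 or 23 h (adjusted p from 0.0313 to 0.0445).

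**Figure D2:**
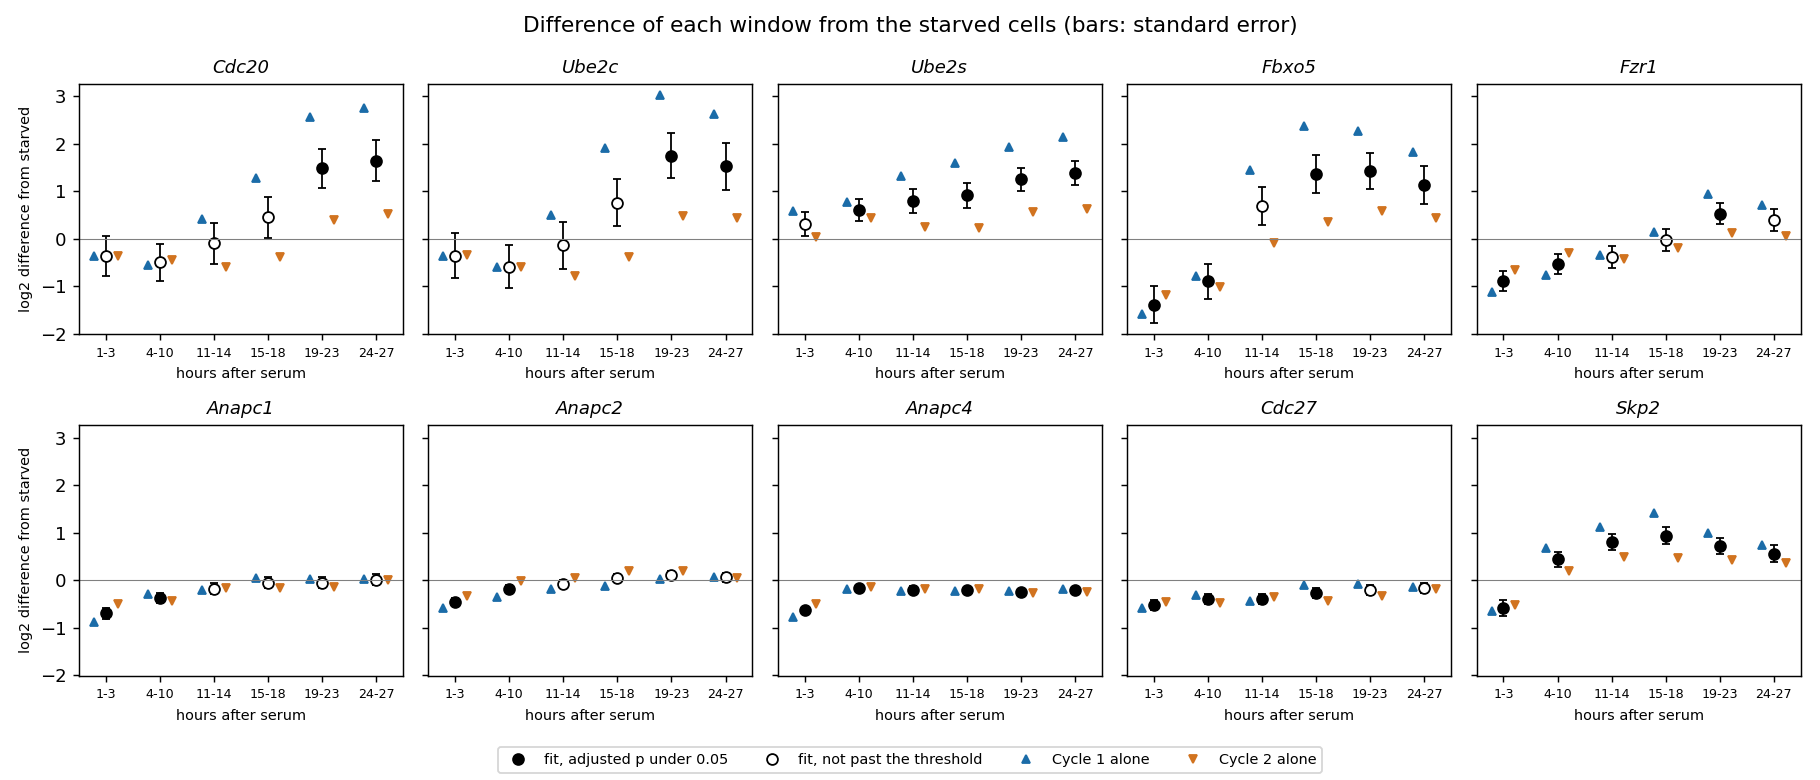
Log2 difference from the starved cells (log2 of value + 1) by window of hours after serum for each of the 10 transcripts. Black circles are the fit over both Cycles with its standard error, filled where the adjusted p is under 0.05, and triangles are the means of each Cycle alone; for Cdc20 at 19-23 h Cycle 1 lies at 2.57 and Cycle 2 at 0.40, while for Anapc1 they lie at 0.03 and -0.14.

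At 24 to 27 h Cdc20, Ube2c, Ube2s, Fbxo5 and Skp2 were higher and Anapc4 lower, beside 24.6% higher and 38.6% lower. Cdc20 was at 1396 to 1862.1 in Cycle 1 and 1062.4 to 1183.3 in Cycle 2 (1.64 ± 0.43, adjusted p = 0.00142 from limma). Fbxo5, Ube2c and Skp2 lost their calls without either starved library of Cycle 1 (adjusted p from 0.0645 to 0.112) and Anapc4 without that at 0 h (0.0607) or with TMM rescaling (0.109), while Cdc27 gained one without the Cycle 2 library at 26 h (0.0481) and Fzr1 one with TMM rescaling (0.0496).

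No transcript of the 10 passed in the 3 later steps between neighbouring windows with limma, in which few genes did. From 11 to 14 h to 15 to 18 h 0.818% of all genes were higher and 1.60% lower, from 15 to 18 h to 19 to 23 h 0.409% and 1.07%, and from there to 24 to 27 h 0.0189% and 0.138%. At an unadjusted p under 0.05 there were 2, 3 and 0 of the 10, beside 15%, 13% and 7.98% of all genes. With edgeR there were 0, 2 and 0 after adjustment, beside 2.86%, 1.91% and 0.09%. Cdc20 had a difference of 1.03 ± 0.33 from 15 to 18 h to 19 to 23 h, which was 2.42-fold in Cycle 1 and 1.72-fold in Cycle 2, and Ube2c one of 0.99 ± 0.38, 2.17-fold and 1.82-fold. The model takes the difference between the Cycles in these genes as spread. In a model chosen after seeing the data, with a mean for each Cycle and window and the contrast averaged over Cycles, the 2 differences had standard errors of 0.11 and 0.13 and passed (adjusted p = 9.64e-09 and 4.22e-06 from limma), as did Fzr1 (0.56 ± 0.11, adjusted p = 0.00192), with 0.969% of all genes higher and 1.23% lower. Successive hours of 1 Cycle are not independent samples, so these p-values are too small, and those of the main model share this limit. The same model also called Cdc20, Ube2c and Fbxo5 higher from 11 to 14 h to 15 to 18 h, beside 2.56% of all genes higher and 1.92% lower.

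Skp2 came up before Fbxo5, and Fbxo5 before Ube2c and Cdc20, in both Cycles, as a description of these libraries. Fzr1 and Ube2s did not keep their place. Taking for each the hour at which it first crossed the middle between its lowest and its later highest value on the shared hours, Fbxo5 crossed at 12.5 h in Cycle 1 and 13.0 h in Cycle 2, Ube2c at 17.8 h and 18.5 h, and Cdc20 at 18.6 h and 18.7 h. Skp2 crossed earlier, at 7.54 h and 3.02 h. Fzr1 crossed at 16.5 h in Cycle 1 and 4.32 h in Cycle 2, and Ube2s at 13.7 h and 4.20 h. In Cycle 2 Ube2c and Cdc20 both crossed between the libraries at 18 h and 19 h, so their order there is not resolved. From low to high Fbxo5 spanned 23.2-fold in Cycle 1 and 4.82-fold in Cycle 2, Ube2c 16.2-fold and 3.07-fold, and Cdc20 14.9-fold and 2.66-fold. Fbxo5 was highest at 17 h on the shared hours of Cycle 1 (616.79) and at 27 h in Cycle 2 (441.4), Ube2c at 21 h (2717.6) and 23 h (1913.9), and Cdc20 at 25 h (1862.1) and 23 h (1273.4). With 2 Cycles the order was not tested.

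**Figure D3:**
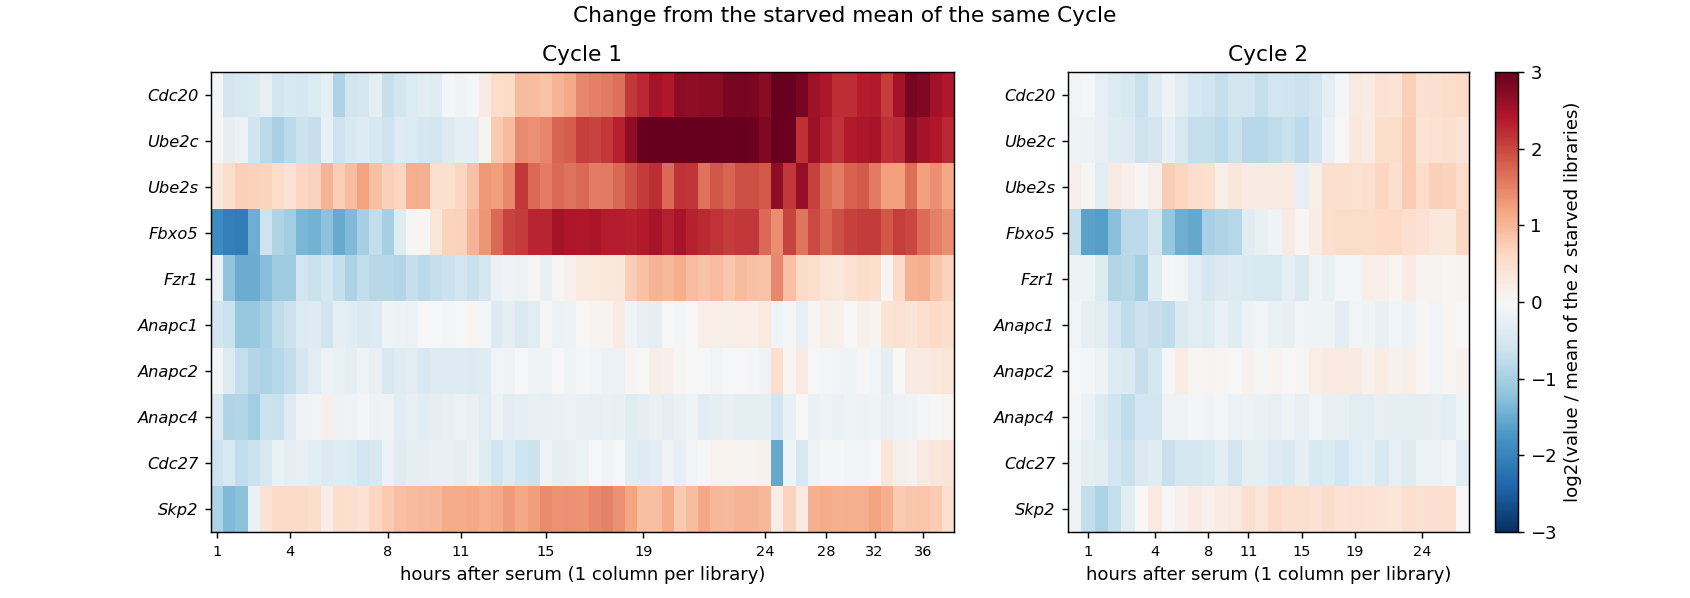
Log2 of each value over the mean of the 2 starved libraries of its Cycle, 1 column per library after 0 h (Cycle 1 left, Cycle 2 right) and 1 row per transcript, red above and blue below the starved mean, with colours ending at -3 and 3. Fbxo5 turns from blue to red several columns before Ube2c and Cdc20 in Cycle 1, and the same order appears in paler colours in Cycle 2.

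Whether the change from starved cells differed between the Cycles was tested for 3 windows with a mean for each Cycle and window. The error of this test is the spread of successive hours within a course, with 1 course per Cycle, so its p-values are too small and the difference between the Cycles has no replicate. At 4 to 10 h none of the 10 differed (limma, 0 also at an unadjusted p under 0.05), beside 11.6% of all genes. At 15 to 18 h Cdc20, Fbxo5, Ube2c and Ube2s differed, beside 15.0%, and at 19 to 23 h these 4 and Fzr1, beside 15.3%. In each case the change was larger in Cycle 1. At 19 to 23 h the difference between the Cycles was 2.55 ± 0.34 for Ube2c (adjusted p = 2.48e-07 from limma), 2.16 ± 0.27 for Cdc20 (1.11e-07), 1.68 ± 0.47 for Fbxo5 (0.00886), 1.37 ± 0.30 for Ube2s (0.00088) and 0.81 ± 0.28 for Fzr1 (0.0407). Leaving out single libraries, the call of Fzr1 was lost without any starved library, the Cycle 1 libraries at 20 or 23 h or the Cycle 2 libraries at 19 or 22 h (adjusted p from 0.0501 to 0.21), and that of Fbxo5 without the 0 h library of Cycle 1 or the -1 h library of Cycle 2 (0.0725 and 0.1). Neither the subunits nor Skp2 were called. Their differences between the Cycles at 19 to 23 h were 0.16 ± 0.22 for Anapc1, -0.16 ± 0.23 for Anapc2, 0.04 ± 0.17 for Anapc4 and 0.26 ± 0.17 for Cdc27, and that of Skp2 was 0.56 ± 0.33. At 15 to 18 h that of Skp2 was larger, 0.94 ± 0.34, and only just missed the threshold (adjusted p = 0.0549 from limma).

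The starved libraries themselves stood at different levels. The starved mean in Cycle 2 was 3.84 times that in Cycle 1 for Ube2c, 3.24 times for Cdc20, 2.53 times for Fbxo5 and 1.99 times for Ube2s, against 0.828 to 1.31 times for the other 6. At 19 to 23 h the values of Cycle 2 lay below those of Cycle 1 for Ube2c, Fbxo5 and Fzr1, with no overlap. The summed level of 11 G2/M marker genes was 4945 to 5172.3 in the starved cells of Cycle 1 and 14987 to 15843 in those of Cycle 2, and 17016 to 20876 against 13336 to 15282 at 19 to 23 h. For 10 S phase marker genes it was 5515.8 to 5643.8 and 11226 to 11474 in starved cells. The sum over the 11 measured markers of other cell types was 1801.7 to 1976.4 and 5077.8 to 5147 in starved cells, and 1499.7 to 2066.7 and 3368.3 to 3947.9 at 19 to 23 h. The part of any of these in the difference between the Cycles was not tested.

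Ratios between the transcripts do not depend on the library scaling. Relative to the starved ratio of the same Cycle, that of Fbxo5 to Fzr1 was 0.877 at 1 to 3 h, 3.83 at 11 to 14 h, 4.49 at 15 to 18 h and 2.55 at 19 to 23 h in Cycle 1, and 0.749, 1.25, 1.46 and 1.36 in Cycle 2. It was highest at 15 to 18 h in both. The ratio of Cdc20 to Fzr1, the alternative activators, was already 1.68 times its starved level at 1 to 3 h in Cycle 1. There it was 2.24 times at 15 to 18 h, 3.27 times at 19 to 23 h and 4.14 times at 24 to 27 h. In Cycle 2 it was 1.23 times at 1 to 3 h and 0.890, 1.22 and 1.37 times at these later windows. At 19 to 23 h it was thus no higher in Cycle 2 than at 1 to 3 h. The ratio of Ube2c to Ube2s was 0.393 times its starved level at 4 to 10 h and 2.05 times at 19 to 23 h in Cycle 1, with 0.490 and 0.940 times in Cycle 2. The ratio of Skp2 to Cdkn1b, which encodes its substrate p27, was 6.56 times at 11 to 14 h in Cycle 1 and 2.56 times in Cycle 2, and 3.57 and 1.99 times at 19 to 23 h. That of Anapc1 to Anapc2 stayed between 0.751 and 1.06 times in the windows up to 27 h. Each is a mean of ratios over the libraries of a window, with no test.

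**Figure D4:**
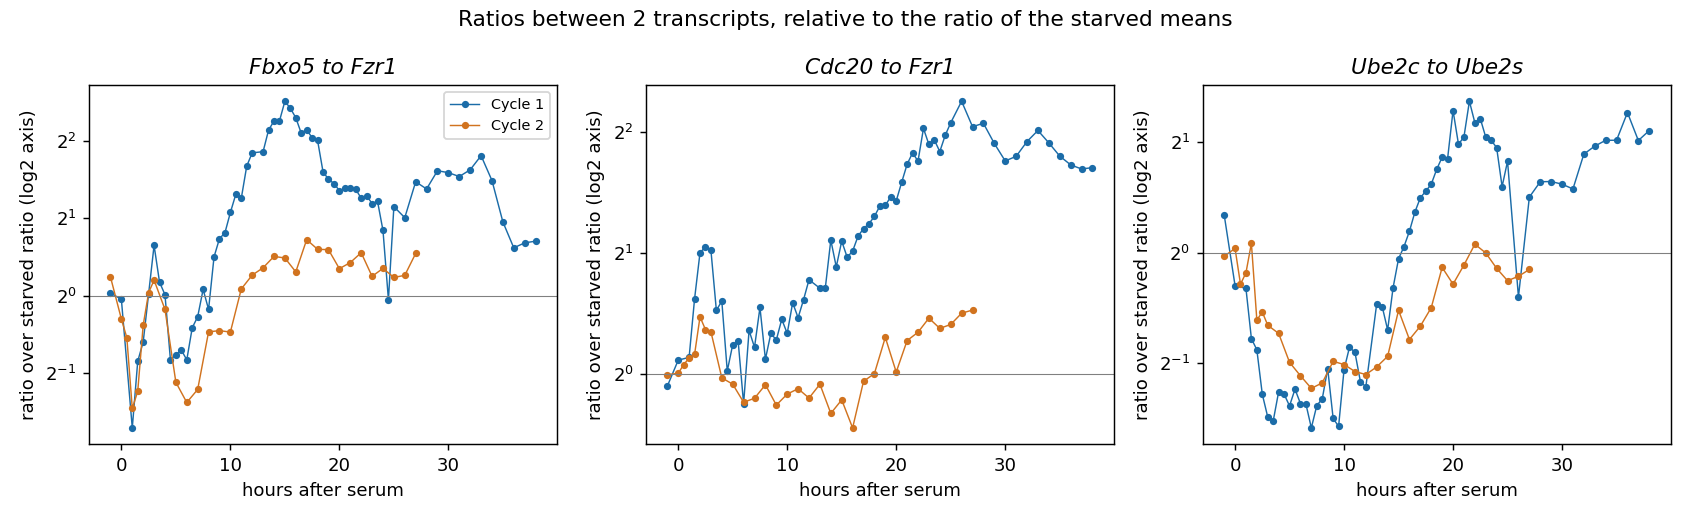
Ratio of Fbxo5 to Fzr1, Cdc20 to Fzr1 and Ube2c to Ube2s in every library over the ratio of the starved means of its Cycle (log2 axis), against hours after serum. In both Cycles the ratio of Fbxo5 to Fzr1 has its highest point before that of Cdc20 to Fzr1. In Cycle 2 the ratio of Cdc20 to Fzr1 also has an early peak nearly as high as the later one. There its highest values per length were 3.43 at 1 to 3 h and 3.57 at 24 to 27 h. The sharp low point of the first panel at 24.5 h is the Cycle 1 library that stands apart.

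Per length of the longest annotated coding transcript the order of levels changed with time. In starved cells of Cycle 1 the 4 subunits led, with 419.2 reads per kb for Anapc2, 320.8 for Anapc4, 241.4 for Cdc27 and 224.1 for Anapc1, followed by Fzr1 (142.4), Ube2c (135) and Cdc20 (133.8), then Fbxo5 (58.3), Skp2 (39.8) and Ube2s (35.2). Fzr1, Ube2c and Cdc20 lay within the spread of the 2 starved libraries of Fzr1. At 19 to 23 h Ube2c (1102 per kb) and Cdc20 (839) stood above all subunits, and Fbxo5 (283.4), Fzr1 (272.3) and Anapc4 (271.5) did not differ beyond their spread. In starved cells of Cycle 2 Ube2c (517.9) and Cdc20 (433.5) were already above Anapc2 (347.2). The levels per kb, and so their order, depend on the transcript taken. Coding transcripts ran from 967 to 2191 bases for Ube2c, 1215 to 3057 for Fzr1 and 3204 to 6196 for Skp2. For the subunits they ran from 555 to 3004 for Anapc2, 1863 to 5425 for Cdc27 and 1214 to 8942 for Anapc1. The values of Skp2 alone are an average over transcripts.

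After 27 h only Cycle 1 was sampled. From 28 to 33 h Cdc20 was at 1012 to 1293 and Ube2c at 1334.9 to 1629.8, below their 19 to 23 h values apart from an overlap of Cdc20 at its lower end. From 34 to 38 h Cdc20 was up to 1725.5, at 35 h, in a library whose short transcripts were high relative to long ones (-0.374 in the length measure described next, with Cdc20 0.212 above its neighbours), and Fzr1 up to 905.08, at 36 h. Fbxo5 was at 472.59 at 34 h and 297.65 at 38 h. Anapc1 was at 2559.9 to 3045.3 in these 5 libraries, above every earlier library of either Cycle except that at 33 h (2673.3), and Cdc27 at 1429.8 to 1708.7. With 1 library per hour these values have no replicate check.

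Single libraries deviated from their neighbours in a way that went with transcript length. Over 8591 genes, the 2150 with the longest transcripts (4640 bases or more) were set against the 2148 with the shortest (up to 2068 bases), each relative to the neighbouring hours. In Cycle 1 the log2 difference ran from -0.653 at 24.5 h, -0.567 at 19 h and -0.558 at 7 h to 0.466 at 18 h. Over the 34 Cycle 1 libraries the deviation of Anapc1, with an 8942-base transcript, correlated with this measure at r = 0.942 and that of Cdc27 at 0.868, against -0.787 for Cdc20, -0.69 for Ube2s and -0.465 for Fbxo5. In 23 libraries of Cycle 2 the values were 0.912, 0.949, -0.536, -0.733 and 0.167. The libraries share neighbours, so these are descriptions with no p. The libraries past 0.3 in size were 11, of which 9 were in the tests and those at 24.5 h and 35 h of Cycle 1 were not. Without these 9, a choice made after seeing the data, the number called at 19 to 23 h was 6 in place of 7, with Fzr1 lost (0.45, adjusted p = 0.0832), and at 4 to 10 h it was 4 in place of 8.

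**Figure D5:**
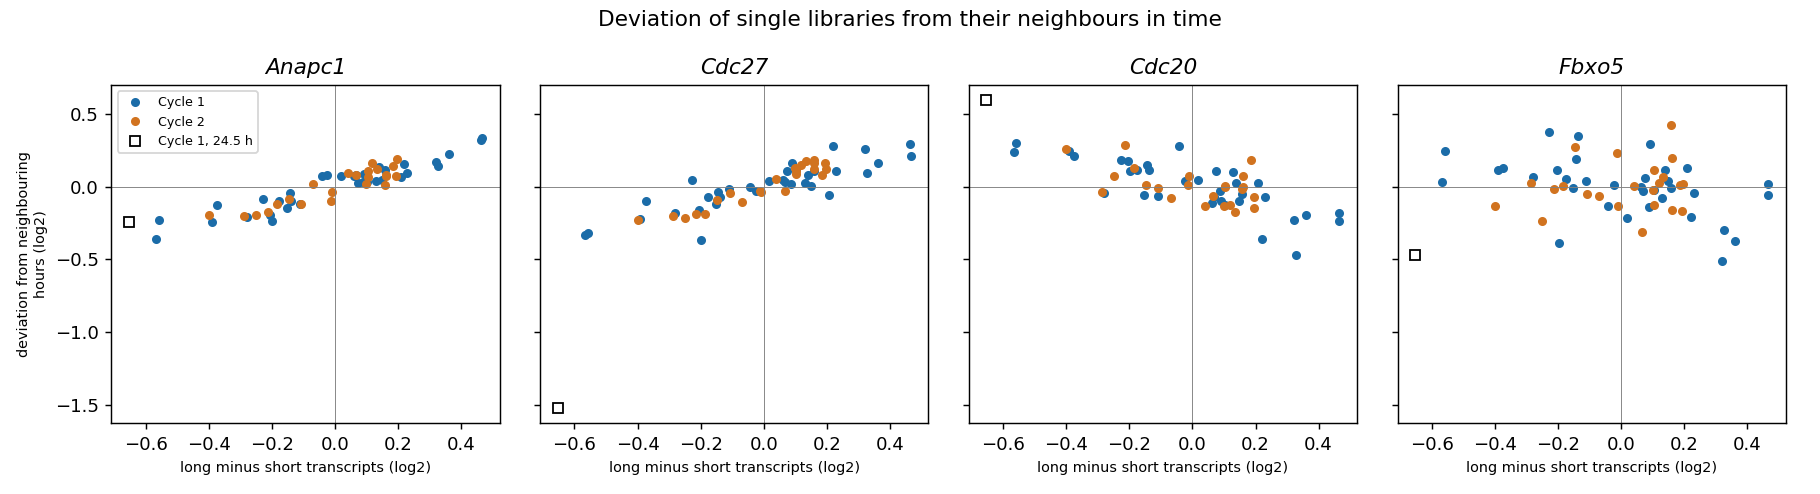
Deviation of Anapc1, Cdc27, Cdc20 and Fbxo5 from the mean of the neighbouring hours (log2) against the difference between long and short transcripts in the same library, 1 point per library, Cycle 1 in blue, Cycle 2 in orange and the 24.5 h library as an open square. Anapc1 and Cdc27 follow the measure closely (r = 0.942 and 0.868 in Cycle 1), Cdc20 goes the other way and Fbxo5 scatters.

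Among themselves Cdc20 and Ube2c were most alike, with a mean Pearson's r of 0.975 (0.972 in Cycle 1 and 0.978 in Cycle 2) over 29 hours on the log2 scale. Fzr1 was next to Cdc20 (0.867) and Fbxo5 next to Skp2 (0.746). Cdc20 had 0.165 with Anapc4. Outside the 10, among 10511 genes with a mean of at least 50, those most like Cdc20 were Ccnb1 (mean r 0.963), Plk1 (0.96) and Tacc3 (0.959), and those most like Ube2c were Tacc3 (0.972), Cdk1 (0.971) and Ccnb1 (0.969). Fbxo5 was most like Exo1 (0.97), Rrm2 (0.962) and Clhc1 (0.951). Fzr1 was most like Kifc1 (0.953), Kif2c (0.948) and H2afx (0.945), while Skp2 was most like Naa40 (0.956), Trim32 (0.948) and Zik1 (0.946). Ube2s had lower values, with Snrpb (0.834), Slc25a3 (0.833) and Tubb4b (0.832) first. Of the subunits Anapc1 went with Tead1 (0.972), Pik3c2a (0.964) and Wnk1 (0.962), Anapc2 with Chst12 (0.918), Tada3 (0.918) and C330006A16Rik (0.916), Anapc4 with Keap1 (0.898) and Elp3 (0.897) among others, and Cdc27 with Tmtc3 (0.891), 5830418K08Rik (0.888) and Gabpa (0.868). All points share the library scaling and the same hours, so these are descriptions. The deviations of Anapc1 and Cdc27 also followed the length measure of the libraries (r = 0.942 and 0.868 in Cycle 1, 0.912 and 0.949 in Cycle 2). The part of this in their likeness to other genes was not tested.

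Other genes of the pathway were counted at 19 to 23 h against starved cells, where the median of all genes was -0.14, with 26.5% of all genes higher and 37.8% lower. The folds and calls of all lists below come from the fit over both Cycles and are not split by Cycle. Of 10 further APC/C subunits 4 were higher, 1 lower and 5 not called (median log2 0.16), led by Anapc15, a subunit that acts in the turnover of the checkpoint complex (2.22-fold, log2 1.15 ± 0.21, adjusted p = 1.51e-05 from limma), Anapc11, the RING subunit (1.28-fold), Anapc10 (1.26-fold) and Anapc7 (1.25-fold). Cdc16 was the lower one (0.881-fold). Of 12 checkpoint inhibitors and other regulators 10 were measured, and 5 were higher with none lower (median 0.76). Trip13 was 3.09-fold higher, Mad2l1 2.32-fold, Mad1l1 1.73-fold, Bub3 1.72-fold and Mad2l1bp 1.54-fold. Of 24 substrates of the APC/C 18 were higher and none lower (median 1.20), with Rrm2 6.06-fold (adjusted p = 5.71e-07 from limma), Aurka 3.00-fold and Cdc6 2.84-fold.

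On the SCF side, 11 of 12 core subunits and cofactors of Skp2 were measured. At 19 to 23 h 6 were higher and 1 lower (median 0.35), with the E2 enzyme Cdc34 2.37-fold (1.25 ± 0.12, adjusted p = 4.29e-10 from limma), the Skp2 cofactor Cks1b 2.10-fold and the neddylation enzyme Ube2m 1.72-fold. The lower one was Cul1, the scaffold of the complex (0.866-fold). Of 8 other F-box genes of the cell cycle 1 was higher, Ccnf (3.32-fold), and 4 were lower, among them Fbxl12 (0.601-fold), Btrc (0.649-fold) and Fbxw11 (0.887-fold). Of 12 substrates of Skp2 6 were higher and 5 lower (median 0.60). Cdkn1c fell to 0.111 times the starved level (-3.17 ± 0.28, adjusted p = 3.38e-11 from limma), and the other lower ones were Rbl2 (0.438-fold), Tob1 (0.512-fold), Foxo1 (0.550-fold) and Cdkn1b (0.606-fold). Ccne1 and Orc1 rose 2.79-fold and 2.56-fold. Of the marker lists, 9 of 10 S phase genes were higher (Cdc45 2.70-fold, Mcm5 2.52-fold, Rrm1 2.47-fold) and 4 of 11 G2/M genes (Aurka 3.00-fold, Cdk1 2.88-fold, Plk1 2.72-fold, Ccnb1 2.46-fold), with none lower. These folds hide a difference between the Cycles. The summed G2/M level in Cycle 1 was 4945 to 5172.3 in starved cells and 17016 to 20876 at 19 to 23 h. In Cycle 2 it was 14987 to 15843 and 13336 to 15282, so the sum did not rise there. Of the fibroblast markers 2 were higher (Thy1 1.80-fold, Vim 1.50-fold) and 4 lower (Col3a1 to 0.123, Col1a2 to 0.356, Col1a1 to 0.556 and Pdgfrb to 0.776 times). Of the 11 measured markers of other cell types 9 were lower, led by Cdh5, Epcam and Pecam1, whose highest values in any library were 82.7, 38.1 and 47.4.

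By position, the NCBIM37 annotation, which is the mm9 build of the files, places Cdc20 on chromosome 4 from 118105506 to 118109957 and Ube2c on chromosome 2 from 164595398 to 164604322. Fzr1 lies on chromosome 10 from 80828967 to 80841261 and Skp2 on chromosome 15 from 9041742 to 9070207. The values are from exon reads, and that of Skp2 is averaged over transcripts.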

How the data were processed

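Polyadenylated RNA of starved and serum-treated CF1 MEFs was sequenced in 2 time courses. Per the labels, the authors used CASAVA, STAR and HOMER with mm9, and the deposited values are a HOMER-normalised signal, exon reads per gene scaled to 10000000 per library. The table has 96 columns, 1 of which names no Cycle and was not used here. By elimination it would be that of the only sample without a column, which is in Cycle 1. Of the low values 94.2% to 96.2% were whole multiples of the smallest step (tolerance 0.1 step), so reads were recovered for edgeR. Main tests were limma 3.58.1 (R 4.3.3) on log2(value + 1) over 15895 genes with hour and Cycle as terms, Benjamini-Hochberg adjusted, threshold 0.05, and edgeR 4.0.16 as an alternative. The labels give the Cycle of each library, and the deviations of its hours correlated over 465 pairs with a median of 0.437 (413 over 0.1). Fold changes are on the log2(value + 1) scale. On simulated data limma recovered 200 of 200 changed genes at 19-23 h with 7 unchanged genes called, and the test between Cycles 173 of 200. The simulated hours were drawn independently, with a constant offset between the Cycles for each gene. The few false calls there say nothing of the error in courses whose hours are not independent. Named genes were the 10, the 3 most like each, and the 3 of each list with the largest difference at 19-23 h, of which 2 are not reported here. The members and lists were chosen with earlier results of these data known. Other software was Python 3.11.15, pandas 2.3.3, numpy 2.4.6 and matplotlib 3.10.9. Protein sequences were not analysed here.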

Additional observations from a re-analysis of the deposited data

Results flagged for a closer look

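The change from starved cells differed between the 2 Cycles by a test of the difference itself (limma, adjusted p under 0.05) in 9 cases among the 10 transcripts. At 15-18 h Cycle 1 minus Cycle 2 was 1.67 for Cdc20, 2.02 for Fbxo5, 2.29 for Ube2c and 1.36 for Ube2s on the log2 scale. At 19-23 h it was 0.81 for Fzr1, 2.16 for Cdc20, 1.68 for Fbxo5, 2.55 for Ube2c and 1.37 for Ube2s. The starved libraries of Cycle 2 were higher in these genes, from 1.23 times those of Cycle 1 for Fzr1 to 3.84 times for Ube2c. Each Cycle has 2 starved libraries, so each of these values leans on 4 libraries, and what sets the starved levels apart was not tested. The error in this test is the spread of successive hours within 1 course per Cycle, so the difference between the Cycles has no replicate and the p-values are too small.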

How the results depend on the processing

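With no replicate block, that is without the Cycle as a term, 6 of the 10 were called at 4-10 h in place of 8, 4 at 15-18 h in place of 5, 6 at 19-23 h in place of 7 and 4 in place of 5 from 1-3 h to 4-10 h, and the other counts were as before. At 4-10 h against starved cells the count of 8 became 4 with TMM rescaling, 3 with median-of-ratios rescaling, 5 with edgeR and 4 without the 9 tested libraries past 0.3 in the length measure. From 4-10 h to 11-14 h it was 2, and 4 with all libraries by window or with Cycle and window means and 1 without those 9 libraries. From 11-14 h to 15-18 h it was 0, and 2 with all libraries by window and 3 with Cycle and window means. From 15-18 h to 19-23 h it was 0, and 2 with edgeR and 3 with each of the other two. With a size above 1 also asked for, 1 transcript was left at 1-3 h, 0 at both 4-10 h and 11-14 h, 1 at 15-18 h and 4 at 19-23 h, 1 from 1-3 h to 4-10 h and 1 from there to 11-14 h. The Cycle and window means and the omission of the 9 libraries were chosen after seeing the data. No called value of the window comparisons or of the differences between Cycles changed sign in any alternative run. The any-hour test was compared by size alone, without sign. The causes of the changes were not tested.

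With a single Cycle or a single library left out, counts ran from 0 to 7 at 1-3 h, 3 to 8 at 4-10 h, 2 to 4 at 11-14 h, 0 to 5 at 15-18 h and 0 to 7 at both 19-23 h and 24-27 h, from 3 to 6 and from 0 to 2 in the first 2 steps, and from 0 to 8 over any hour. The difference between Cycles was called for 3 to 5 at 19-23 h and for 4 throughout at 15-18 h. The counts of 0 come from fits of 1 Cycle alone, whose spread has 1 residual degree of freedom, from the starved pair. With single libraries left out the lowest were 7, 3, 2, 3, 6 and 2 for the 6 windows. Pseudocount 10, a minimum mean of 50 and trend with robust moderation left every call of the window comparisons as it was, and pseudocount 10 added Skp2 to those that differ between Cycles at 15-18 h (0.92, adjusted p = 0.038). Depth limits Ube2s most, with 19 to 79 reads in the starved libraries.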

Other observations

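The Cycle 1 library at 24.5 h, which entered no test, had the highest value of all libraries for Cdc20 (2570.3), Ube2c (2827.9), Ube2s (219.79), Fzr1 (1188.6) and Anapc2 (1783.5) and the lowest for Cdc27 (453.59). Its difference between long and short transcripts was -0.653, the lowest of the libraries compared. The Cycle 1 library at 26 h, which was in the tests, had 211.24 for Ube2s and 293.1 for Skp2, against 144.62 and 517.72 at 27 h, with a difference between long and short transcripts of -0.198.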
